A study of Mus musculus with 6 samples.

Results

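Potassium channel genes were followed through RNA sequencing of the mouse hippocampus, by the gene symbols of the Kcna, Kcnb, Kcnc, Kcnd, Kcnf, Kcng, Kcnh, Kcnj, Kcnk, Kcnn, Kcnq, Kcns, Kcnt, Kcnv, Kcnab, Kcnip, Kcnma and Kcnmb series. The symbols picked out 87 of the 25239 genes listed, and the rule used symbols only. Hippocampi came from 3 Ube3am+/p+ mice, referred to as WT, and 3 Ube3am-/p+ mice, a model of Angelman syndrome in which the maternal copy of the ubiquitin ligase gene Ube3a does not function and the paternal copy is kept. All 6 mice were males on the C57BL/6 background, 6 to 8 weeks old, and each gave 1 library. The mutation is present in the whole animal and the tissue is a mixture of cell types, so that fewer cells of a type and less RNA per cell cannot be told apart.

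Potassium channels are membrane pores that let potassium ions pass and sodium ions stay behind. In neurons they set the resting potential, end the action potential and limit repetitive firing, and in astrocytes they take up the potassium that active neurons release. The voltage-gated, calcium- or sodium-activated, inward rectifier (Kir) and 2-pore-domain (K2P) families form the pore itself, whereas the Kv beta, KChIP and BK beta proteins are auxiliary subunits that bind to pores and change their gating or their number at the membrane.

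The pore-forming families share a short selectivity filter, the stretch of backbone that strips water from the potassium ion. Its signature was searched in the longest complete coding sequence of each gene in GENCODE M21 (GRCm38), as a serine or threonine, then a valine, isoleucine or leucine, a glycine, a tyrosine, phenylalanine or leucine, and a glycine. All 76 pore-forming members held it and none of the 11 auxiliary members did, and 12 of the 14 K2P genes held it more than once. Among all 21764 genes with a complete coding sequence the signature occurred in 1.33%, so that a match alone does not define a channel. The stretches of 63 bases below show the filter codons in capitals, on the coding strand from 5′ to 3′. Kcnt2 and Kcnt1, which encode the sodium-activated channels Slick and Slack, are shown because they are close relatives with unlike base composition, and Kcnh3, Kcnf1 and Kcnc2 because they were among the members with the lowest adjusted p.
Kcnt2: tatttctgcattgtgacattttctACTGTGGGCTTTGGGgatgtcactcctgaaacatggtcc
Kcnt1: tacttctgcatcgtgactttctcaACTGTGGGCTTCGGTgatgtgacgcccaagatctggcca
Kcnh3: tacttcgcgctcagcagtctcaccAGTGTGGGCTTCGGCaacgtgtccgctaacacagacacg
Kcnf1: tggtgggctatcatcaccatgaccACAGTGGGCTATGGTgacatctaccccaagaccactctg
Kcnc2: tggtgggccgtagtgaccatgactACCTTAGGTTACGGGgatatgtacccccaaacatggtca

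The Kcnt2 stretch lies in exon 9 on the plus strand of chr1:140425254-140425316 and the Kcnt1 stretch in exon 11 on the plus strand of chr2:25894343-25894405. Those of Kcnh3, Kcnf1 and Kcnc2 lie in exon 8 (plus strand, chr15:99232905-99232967), exon 1 (minus strand, chr12:17175037-17175099) and exon 3 (plus strand, chr10:112456205-112456267). G and C made up 44.4% of the Kcnt2 stretch and 42.7% of its whole coding sequence, against 52.4% and 57.3% in Kcnt1, and 58.7% and 60.9% in Kcnh3. In Kcnf1 they made up 54.0% and 58.2%, and in Kcnc2 52.4% and 54.7%. Base composition is given here because the difference between the genotypes followed the GC content of the longest transcript across all genes, as described further on. That content can differ from the values above, at 45.7% in Kcnc2 and 54.2% in Kcnf1.

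The libraries held 7293272 to 11314409 counts on genes. Ube3a measured 104, 141 and 151 CPM (counts per 1000000 gene counts of the library) in the WT mice and 96.8, 82.9 and 80.6 CPM in the Ube3am-/p+ mice, a log2 fold change of -0.58 ± 0.12 (SE, n = 3 per genotype, adjusted p = 0.0363 by edgeR's quasi-likelihood test). When each library was corrected for the GC content and length of transcripts, the value was -0.20 with an adjusted p of 0.24, and 3 genes on the opposite strand, Snhg14 among them, overlap 5624 bases of its exons. The first principal component, with 42.4% of the variance, placed WT mice 2 and 3 at one end, Ube3am-/p+ mice 2 and 3 at the other, and mouse 1 of each genotype between them. All 8 markers of hippocampal pyramidal neurons and all 6 of dentate granule cells were detected, and their summed levels overlapped between the genotypes. The summed markers of interneurons, astrocytes, microglia, oligodendrocytes and endothelial cells were lower in all 3 Ube3am-/p+ mice than in any WT mouse, by ranges such as 5133 to 5550 CPM against 4574 to 4811 CPM for the 6 astrocyte markers. Single markers went both ways, with 4 of 7 interneuron, 2 of 6 astrocyte, 2 of 6 microglial, 3 of 6 oligodendrocyte and 3 of 6 endothelial or pericyte markers having positive log2 fold changes. No marker was at 0. The part of cell composition in the results on channel genes was not tested.

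Of the 87 members, 71 passed the filter on low counts. The other 16 had at most 45 counts over the 6 libraries, and Kcna10 and Kcnk16 were listed at 0 in every library, where the upper limit of 3 counts corresponds to 0.265 to 0.411 CPM. Under the filter lay Kcna7, Kcna10, Kcng3, Kcnh8, Kcnj1, Kcnj5, Kcnj15, Kcnk5, Kcnk7, Kcnk15, Kcnk16, Kcnk18, Kcnmb3, Kcnn4, Kcnq1 and Kcnv2. Kcnk5 alone among them is named for its values, with 2, 1 and 0 counts in WT mice and 7, 5 and 8 in Ube3am-/p+ mice, too few for a test. Of the tested members, 55 averaged over 10 CPM. The summed level of all members was 5986 ± 174 CPM in WT mice and 6051 ± 57.7 CPM in Ube3am-/p+ mice (SD, n = 3), and the ranges overlapped.

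Levels were compared between genes only per length, as CPM per kilobase of the longest annotated transcript. Among the genes reported, Kcnab2, a Kv beta subunit, stood highest at a mean of 243 CPM per kb, with 213 to 276 CPM per kb over the 6 mice. Its lowest mouse was above the highest mouse of the genes that follow. Kcnip2, a KChIP of Kv4 channels, ranged from 63.1 to 76.6 CPM per kb and the axonal channel gene Kcna1 from 53.5 to 68.0. These ranges overlapped, so the order of these genes was not resolved. In other families, high levels per length were those of the K2P gene Kcnk1 (mean 40.5 CPM per kb), the astrocytic Kir gene Kcnj10 (39.0), the dendritic Kv4 gene Kcnd2 (33.4), Kcnh3 (31.5), Kcnmb4, Kcnn2 (17.2) and Kcng2 (12.2). Kcnmb4, a neuronal BK beta subunit, ranged from 23.9 to 31.5 CPM per kb.

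**Figure D1:**
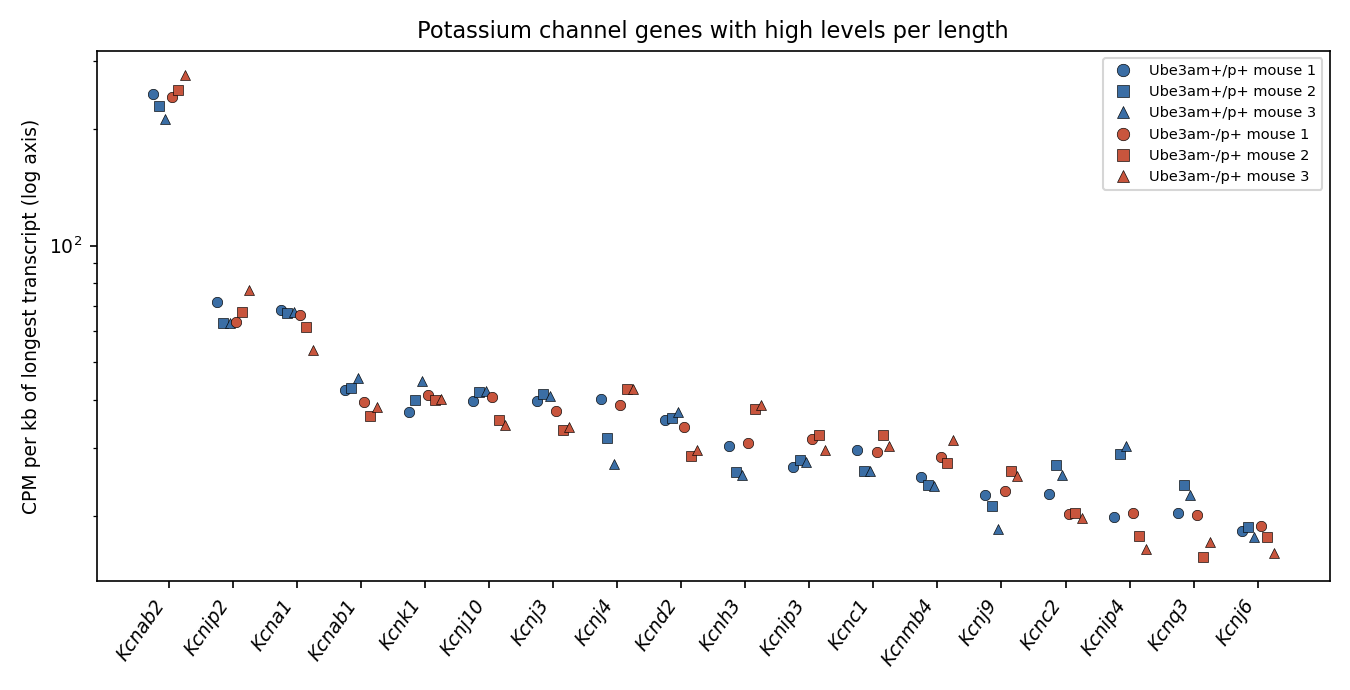
Level of 18 potassium channel genes with high mean levels per length, in CPM per kilobase of the longest transcript on a log axis, with 1 point per mouse (WT blue, Ube3am-/p+ red). Kcnab2 lies between 213 and 276 CPM per kb, clear of the genes to its right, and Kcnip2 between 63.1 and 76.6.

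To learn whether loss of the maternal Ube3a copy came with a change in channel expression, each gene was tested between the genotypes over all genes together. A gene counted as differentially expressed when its adjusted p was under 0.05 and its levels differed by more than 1.2-fold. By edgeR none of the 71 members met both limits, against 2.01% of the 14445 genes tested. At an unadjusted p below 0.05 there were 21 members, 11 higher and 10 lower in Ube3am-/p+ mice, or 29.6%, against 24.6% of all genes. Without overlap between the genotypes were 13 members with higher values in Ube3am-/p+ mice (18.3%, against 10.8% of all genes) and 10 with lower values (14.1%, against 14.2%). DESeq2 called 6 members, Kcnf1 and Kcnh3 higher and Kcnc2, Kcnip4, Kcnq3 and Kcnt2 lower, which is 8.45% against 6.69% of all genes. The lowest adjusted p with edgeR was 0.0518, and 8 members had an adjusted p under 0.1 (11.3%, against 10.8% of all genes). Since exact permutation of 3 against 3 mice cannot give a p below 0.1, single genes rest on the model fitted across genes. Its p-values set the genotype difference against the spread of these 6 mice within their genotypes, as estimated with the help of other genes.

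The number called turned on mouse 1 of each genotype. Without WT mouse 1 the edgeR count was 13 members (18.3%, against 17.6% of all genes in that fit), without Ube3am-/p+ mouse 1 it was 8 (11.4%, against 12.5%), and without any other single mouse it was 0. Both shares lay near those of all genes. Called in both of those fits were Kcnf1, Kcnh3, Kcnip4, Kcnj9, Kcnq3 and Kcnt2.

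The 71 log2 fold changes had a median of 0.09, with 43 above and 28 below 0, where the median of all genes was 0.003. The medians by family ran from -0.12 for the 4 tested Kv7 genes to 0.27 for the 3 tested BK beta genes. After correction for GC content and length the median over the members was 0.002, and that over all genes -0.01. The largest positive log2 fold changes, 0.86 for Kcna5 and 0.77 for Kcnmb1, belonged to genes with 69 and 56 counts in all, each with an SE of 0.53 and overlapping groups.

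**Figure D2:**
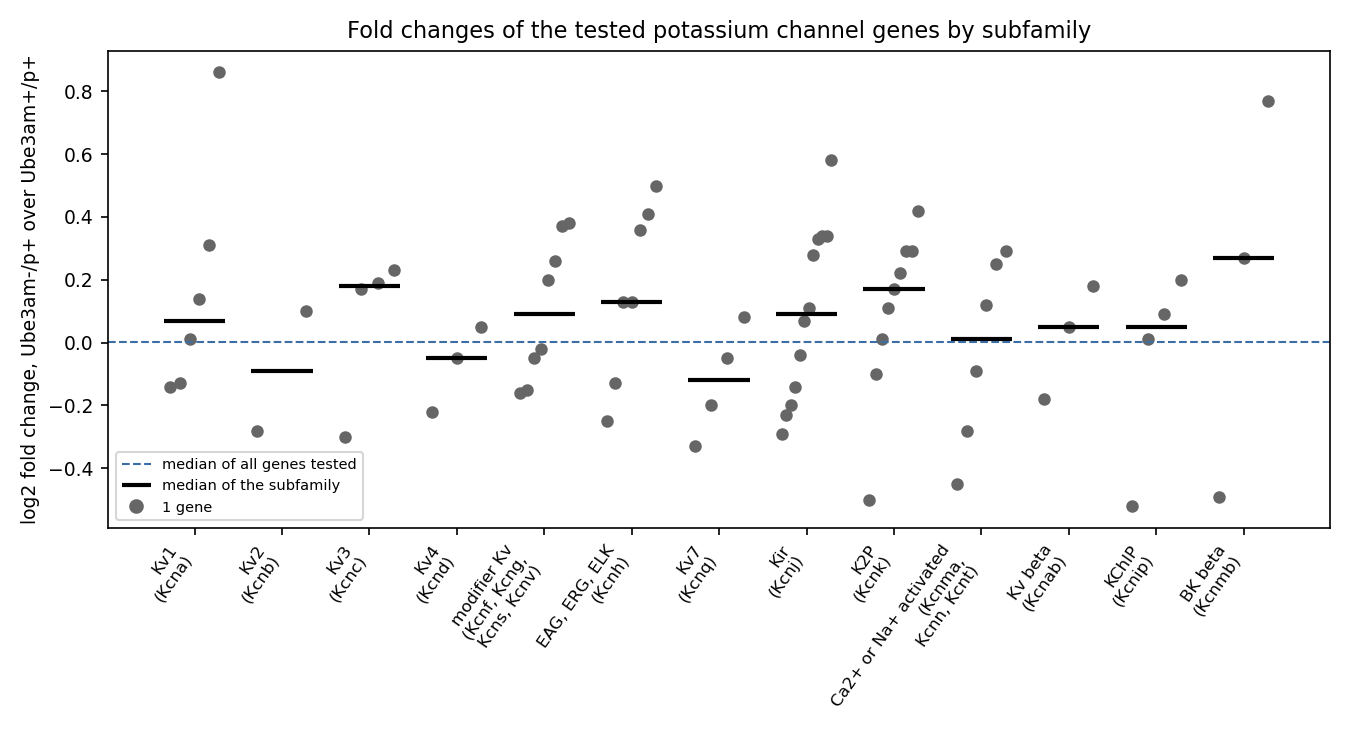
Log2 fold change of each tested potassium channel gene (Ube3am-/p+ over WT), 1 point per gene, by family, with the family median as a bar and the median of all genes tested (0.003) as a dashed line. Each family has points on both sides of 0, and the values run from -0.52 for Kcnip4 to 0.86 for Kcna5.

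Among the sodium- and calcium-activated channels, Kcnt2 (Slick) measured 48.2, 51.2 and 56.6 CPM in WT mice and 43.9, 33.0 and 36.3 CPM in Ube3am-/p+ mice. All 3 Ube3am-/p+ values lay below the WT values, with mouse 1 nearest to them. The log2 fold change was -0.45 ± 0.12 (SE, adjusted p = 0.0518) and went to -0.08 after the GC and length correction. Its relative Kcnt1 (Slack) had 56.3, 60.5 and 59.8 CPM against 66.7, 66.8 and 55.5 CPM, and the groups overlapped (log2 fold change 0.12 ± 0.10, adjusted p = 0.491). Whether the 2 genes differed from each other in their response was not tested.

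Kcnn2, the small-conductance channel SK2 that shapes the afterhyperpolarization and synaptic responses of pyramidal neurons, had 65.8, 75.6 and 67.7 CPM in WT mice. In Ube3am-/p+ mice it had 59.6, 54.8 and 56.1 CPM, again without overlap. Its log2 fold change was -0.28 ± 0.09 with an adjusted p of 0.0933. Kcnn2 was the 1 member that passed the threshold after the GC and length correction, where 0.648% of the 14201 genes passed. There it fell by 0.40 ± 0.09 on the log2 scale (adjusted p = 0.0284), and the corrected levels were 65.8, 79.6 and 71.7 CPM against 59.6, 51.6 and 53.5 CPM. The corrected call held without WT mouse 1 or without Ube3am-/p+ mouse 1, and it was lost without each of the other 4 mice in turn, where adjusted p ran up to 0.299. With the replicate number as a block the corrected adjusted p was 0.0915. Other members passed the threshold under the correction only with a mouse left out. Kcnmb4 did so without mouse 1 of either genotype, Kcnf1 and Kcnip4 without WT mouse 1, and Kcnk9 without Ube3am-/p+ mouse 3. The shares over all genes in those fits are not given here. Exons of 2 genes on the opposite strand overlap 607 bases of Kcnn2, and whether the counting used strand is not given in the sources used here. The SK1 gene Kcnn1, named after its values were seen, lay on the other side before the correction. It had 13.7 to 15.8 CPM in WT mice and 16.1 to 19.7 CPM in Ube3am-/p+ mice without overlap (log2 fold change 0.29 ± 0.14, adjusted p = 0.209). After the correction the value was 0.12 (adjusted p = 0.759), and the groups overlapped at 14.8 to 17.0 CPM against 16.0 to 18.3 CPM. Kcnma1, the pore of the large-conductance BK channel, overlapped at 32.9 to 37.7 CPM against 31.1 to 34.8 CPM, and its log2 fold change of -0.09 became 0.07 after the correction.

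Kcnmb4, the neuronal beta subunit of BK, measured 41.1, 39.2 and 38.9 CPM in WT mice and 46.3, 44.7 and 51.1 CPM in Ube3am-/p+ mice. Each Ube3am-/p+ value was above each WT value, and the log2 fold change was 0.27 ± 0.10 (adjusted p = 0.117). It did not shrink with the correction, at 0.35 (adjusted p = 0.0731), and the GC content of its transcript was 44.3%. Exons of Kcnmb4os1 and Kcnmb4os2, on the opposite strand, overlap 1048 bases of its own.

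The ether-a-go-go family (Kcnh) comprises slow voltage-gated channels of the EAG, ERG and ELK types. Its summed level was 208 ± 12.8 CPM in WT mice and 253 ± 15.3 CPM in Ube3am-/p+ mice (SD, n = 3) without overlap. Of its 7 tested genes 5 had positive and 2 negative log2 fold changes. The family sums of Kv4 and BK beta also lacked overlap, and those of all other families overlapped. No family sum was corrected for GC content and length. Kcnh3, the ELK channel Kv12.2 of forebrain neurons, measured 112, 96.3 and 94.3 CPM in WT mice and 114, 140 and 143 CPM in Ube3am-/p+ mice. Mouse 1 of each genotype lay side by side, and mice 2 and 3 apart. The log2 fold change was 0.41 ± 0.11 (adjusted p = 0.0527), and 0.14 after the correction. Kcnh2, the ERG channel known from cardiac repolarization, had 27.2, 23.7 and 29.2 CPM against 33.9, 34.8 and 32.9 CPM (log2 fold change 0.36 ± 0.11, adjusted p = 0.0746). After the correction it stood at 0.10. Kcnh4, at 3.77 to 4.61 CPM against 5.52 to 6.56 CPM, had a log2 fold change of 0.50 ± 0.22 (adjusted p = 0.175), and 0.26 after the correction. Kcnh7, with 102 counts in all, overlapped, and its log2 fold change of -0.25 ± 0.39 was 0.04 after the correction. The transcripts of Kcnh2, Kcnh3 and Kcnh4 were rich in GC, at 61.3%, 61.2% and 60.0%.

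Kv7 channels carry the M-current, which acetylcholine suppresses. Kcnq3 measured 241, 284 and 268 CPM in WT mice and 238, 185 and 202 CPM in Ube3am-/p+ mice. The values did not overlap, though WT mouse 1 and Ube3am-/p+ mouse 1 were nearly equal. Its log2 fold change was -0.33 ± 0.10 (adjusted p = 0.0703), and -0.14 after the correction. The GC content of its transcript was 44.4%. Kcnq1, the cardiac and epithelial member, lay under the filter with 37 counts in all. Kcnq1 and Kcnk9, a K2P gene also known as TASK-3, are imprinted. Kcnk9 measured 29.1, 33.4 and 27.3 CPM in WT mice and 44.2, 48.8 and 25.8 CPM in Ube3am-/p+ mice. Mice 1 and 2 of the latter were above every WT mouse and mouse 3 below all of them (log2 fold change 0.42 ± 0.20, adjusted p = 0.238). After the correction the log2 fold change was 0.49 ± 0.14 (adjusted p = 0.112). Ube3am-/p+ mouse 3, at 31.0 CPM, then lay within the WT range of 25.9 to 32.0 CPM.

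**Figure D3:**
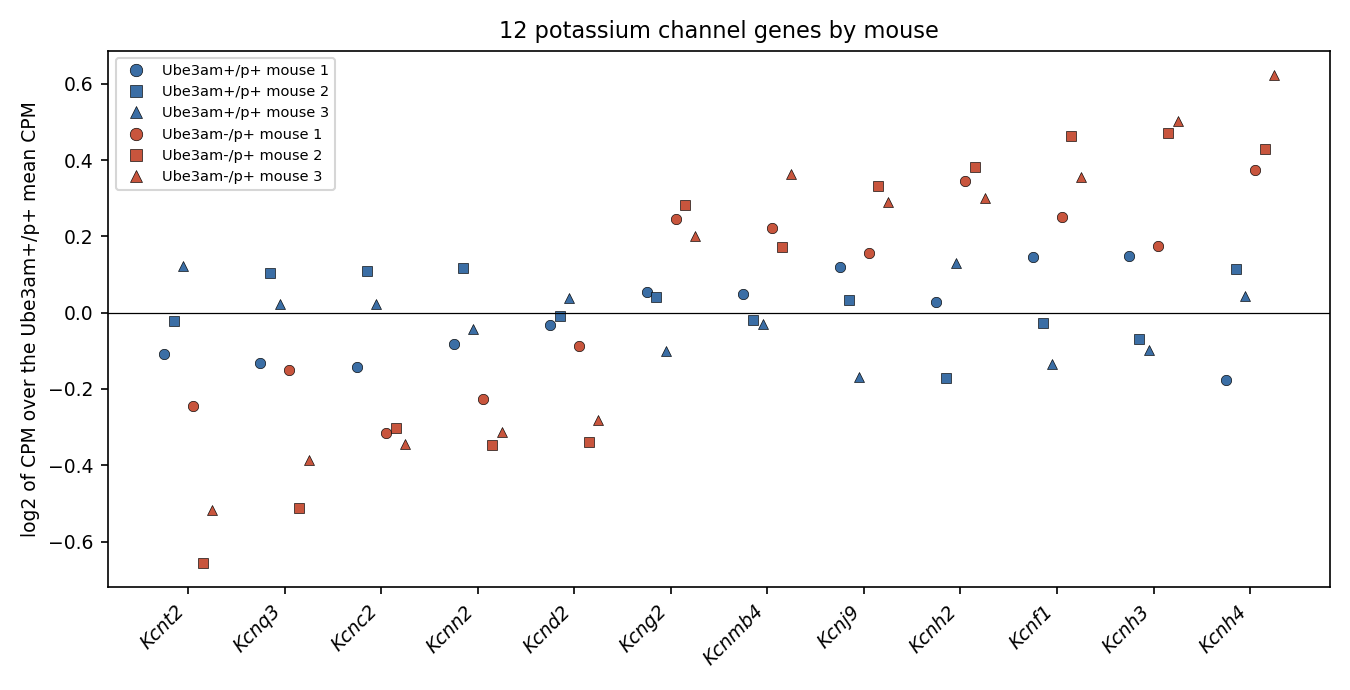
Log2 of each mouse's CPM over the mean CPM of the WT mice, for the 12 genes with the largest absolute log2 fold change among those with an unadjusted p below 0.05 and no overlap between the genotypes, with 1 symbol per mouse. Mice numbered 1 (circles) are the closest pair across the genotypes in Kcnt2, Kcnq3, Kcnn2, Kcnd2, Kcnj9, Kcnf1 and Kcnh3. No adjusted p in the plot is below 0.0518.

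Among the Kv3 channels, which let neurons fire fast, Kcnc2 measured 115, 137 and 129 CPM in WT mice and 102, 103 and 100 CPM in Ube3am-/p+ mice, without overlap. The log2 fold change was -0.30 ± 0.09 (adjusted p = 0.0679), and -0.18 after the correction. Kcnc2 is a gene of fast-spiking and other interneurons, and the 7 interneuron markers summed to 648 to 670 CPM in WT mice and 588 to 616 CPM in Ube3am-/p+ mice. Gad1 (-0.21) and Gad2 (-0.37) had negative log2 fold changes, whereas Pvalb, the marker of fast-spiking cells, was at 0.25 and Sst at 0.019. Their part in the Kcnc2 value was not tested. Kcnc1 overlapped at 203 to 230 CPM against 227 to 252 CPM (log2 fold change 0.19 ± 0.08, adjusted p = 0.187).

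Kv4 channels and their KChIP partners produce the A-type current of dendrites. The 3 Kv4 genes summed to 281 ± 8.09 CPM in WT mice and 250 ± 17.9 CPM in Ube3am-/p+ mice (SD, n = 3), without overlap. Kcnd2, the most abundant of them, was at 182, 185 and 191 CPM against 175, 147 and 153 CPM (log2 fold change -0.22 ± 0.09, adjusted p = 0.141), and was at -0.06 after the correction. Kcnd3 overlapped, with -0.05 ± 0.10. Of the KChIPs, Kcnip4 had the most negative log2 fold change of all members, at 47.7, 69.4 and 72.7 CPM against 48.6, 42.5 and 39.4 CPM. The groups overlapped through mouse 1 of each genotype, and the log2 fold change was -0.52 ± 0.14 (adjusted p = 0.0564) and -0.29 after the correction. Kcnip4 did not meet the naming rule and is given after its values were seen. Kcnip3, also known as DREAM, is a calcium-binding repressor as well as a channel subunit. It had 73.0 to 76.3 CPM in WT mice and 80.7 to 88.5 CPM in Ube3am-/p+ mice without overlap (0.20 ± 0.09, adjusted p = 0.164). After the correction its log2 fold change was 0.07 (adjusted p = 0.768). The corrected groups overlapped, at 72.9 to 81.0 CPM against 76.5 to 86.2 CPM. Kcnip2 overlapped, and its log2 fold change of 0.09 was -0.05 after the correction.

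In the Kv1 family, the axonal channels that keep thresholds high, Kcna1 was at 274, 270 and 272 CPM in WT mice and at 267, 249 and 216 CPM in Ube3am-/p+ mice. There was no overlap, but mouse 1 differed by little, and the log2 fold change was -0.14 ± 0.09 (adjusted p = 0.324). Kcna2 (-0.13 ± 0.10) and Kcna4 (0.01 ± 0.11) overlapped, and Kcna2 was at 0.01 after the correction. Of the Kv beta subunits, Kcnab1 was without overlap at 186 to 199 CPM against 159 to 173 CPM (-0.18 ± 0.08, adjusted p = 0.187, -0.02 after the correction). Kcnab2 overlapped, with a log2 fold change of 0.18 ± 0.09 that was -0.01 after the correction.

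Electrically silent subunits join Kv2 subunits in shared channels and do not form working channels alone. Kcnf1 among them measured 53.7, 47.6 and 44.2 CPM in WT mice and 57.7, 66.9 and 62.1 CPM in Ube3am-/p+ mice, each above every WT value. Its log2 fold change of 0.38 ± 0.10 (adjusted p = 0.0595) kept most of its size after the correction, at 0.28 (adjusted p = 0.112). Kcng2 had 32.5, 32.2 and 29.2 CPM against 37.1, 38.1 and 36.0 CPM, also without overlap. Its log2 fold change was 0.26 ± 0.10 (adjusted p = 0.142), and -0.01 after the correction.

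Among the inward rectifiers, the GIRK subunits couple inhibitory receptors to potassium efflux. Kcnj9 (GIRK3) had 87.2, 82.0 and 71.4 CPM in WT mice and 89.4, 101 and 98.0 CPM in Ube3am-/p+ mice (0.28 ± 0.10, adjusted p = 0.105, 0.10 after the correction). Kcnj3 (GIRK1) was lower without overlap, at 207, 216 and 213 CPM against 195, 174 and 177 CPM. Its log2 fold change was -0.20 ± 0.08 (adjusted p = 0.141), and -0.03 after the correction, with 1621 bases of its exons overlapped by 1 gene on the opposite strand. Kcnj6 (GIRK2) overlapped at 64.0 to 68.1 CPM against 58.3 to 68.2 CPM. The GC content of the transcripts was 57.2% for Kcnj9, 48.2% for Kcnj6 and 43.9% for Kcnj3.

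Kcnj10 (Kir4.1), the main potassium channel of astrocytes, measured 214, 226 and 227 CPM in WT mice and 219, 192 and 186 CPM in Ube3am-/p+ mice. The groups overlapped through mouse 1, and the log2 fold change was -0.14 ± 0.08 (adjusted p = 0.297) and -0.13 after the correction. The lower sum of the 6 astrocyte markers in Ube3am-/p+ mice stands beside it, and its part was not tested. The remaining members without overlap are named after their values were seen: Kcnh1, Kcnj8, Kcnk3 and Kcnk4 on the higher side, with log2 fold changes of 0.13, 0.58, 0.22 and 0.17 (0.10, 0.47, 0.00 and 0.04 after the correction), and Kcnk6 and Kcnq5 on the lower side, with -0.50 and -0.20 (-0.55 and -0.11). Kcnj8, the channel of pericytes and smooth muscle that sulfonylurea receptors join, had 2.00 to 2.61 CPM against 3.04 to 3.61 CPM. Among K2P genes Kcnk1 had 83.2 to 100 CPM against 89.3 to 92.1 CPM, and its log2 fold change of 0.01 was -0.07 after the correction.

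Kcnj13 (Kir7.1), a channel of choroid plexus epithelium, varied more between mice than any other tested member, with an SE of 1.46 on its log2 fold change of 0.34. It measured 5.54, 0.807 and 22.1 CPM in WT mice and 19.1, 15.3 and 0.475 CPM in Ube3am-/p+ mice, and is named after its values were seen. The 6 choroid plexus markers, all detected, summed to 613.8, 103.4 and 2188 CPM and to 2277, 1614 and 108.4 CPM in the same mice. Kcne2, a channel partner of the same epithelium, measured 3.30, 0.461 and 9.46 CPM and 10.5, 10.1 and 0.855 CPM. The low mice, WT mouse 2 and Ube3am-/p+ mouse 3, were low in all of these, and neither genotype was separated from the other.

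**Figure D4:**
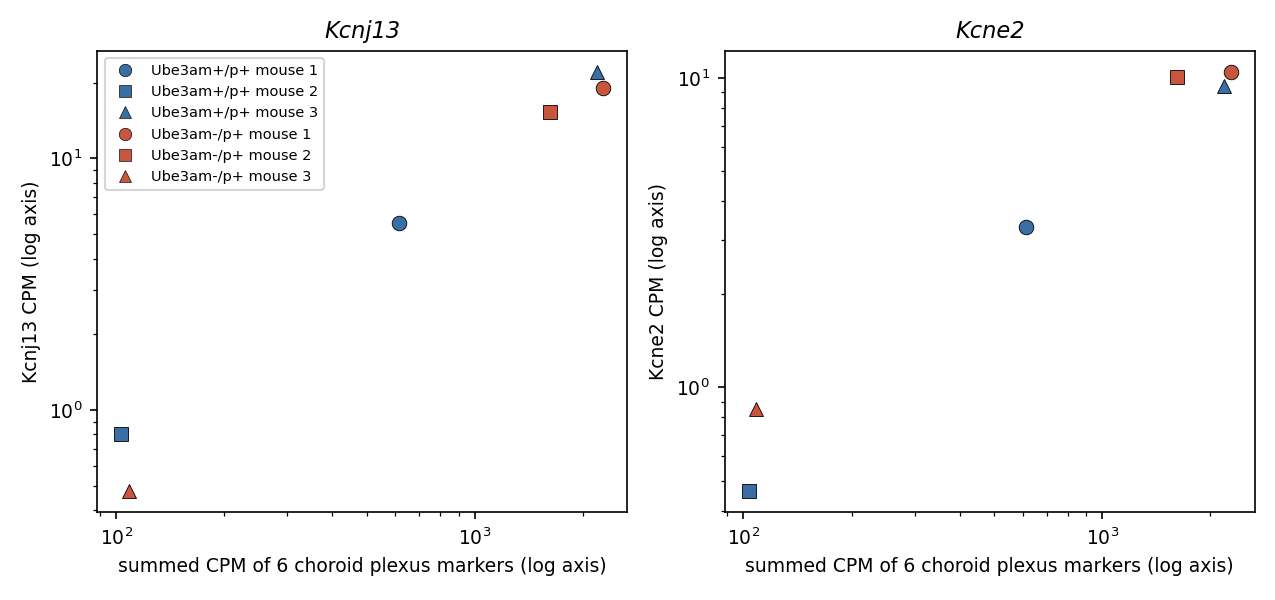
Kcnj13 (left) and the channel partner gene Kcne2 (right) in CPM against the summed CPM of 6 choroid plexus markers, 1 point per mouse, log axes. WT mouse 2 and Ube3am-/p+ mouse 3 sit at the lower left at 103.4 and 108.4 CPM of markers, and the 3 mice with 1614 to 2277 CPM of markers have the highest values of both genes, in both genotypes.

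The partner genes outside the symbol series, such as the Kcne subunits, the Kv4 partners Dpp6 and Dpp10, the sulfonylurea receptors Abcc8 and Abcc9 and the Kv1-associated Lgi1, Adam22 and Cntnap2, were read in the same fit. Of 19 listed in the files 13 were tested, and edgeR called 0, with 4 at an unadjusted p below 0.05 (30.8%, against 24.6% of all genes), and DESeq2 called 1, Lgi1 (7.69%, against 6.69%). Kcne1l measured 2.00, 1.04 and 1.92 CPM in WT mice and 2.82, 4.24 and 3.33 CPM in Ube3am-/p+ mice (1.10 ± 0.33, adjusted p = 0.0715, 0.84 after the correction). Lgi1, a secreted protein of the Kv1 complex, was at 198, 217 and 224 CPM against 187, 170 and 164 CPM (-0.28 ± 0.09, adjusted p = 0.0741), and at -0.10 after the correction (adjusted p = 0.521). Cntnap2 (-0.28 ± 0.10, -0.11 after the correction) and Lrrc55, a BK gamma subunit (-0.26 ± 0.12, -0.27 after the correction), were the other two.

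Across the members, the log2 fold change moved with the GC content of the longest transcript. Spearman's rho over the 71 genes was 0.646, and over the 14201 genes with a transcript 0.622, as a description over genes that share the same 6 libraries. Of the 30 members with a GC content of 50% or less, 22 had negative log2 fold changes (median -0.15). Of the 41 with more, 35 had positive ones (median 0.18). All genes split in the same way, with 25.8% positive in the GC-poor class (median -0.14) and 75.8% in the GC-rich class (median 0.14). Without overlap in the GC-poor class were 1 member on the higher side (3.33%, against 3.27% of all genes in the class) and 7 on the lower side (23.3%, against 24.1%). In the GC-rich class they were 12 higher (29.3%, against 18.5%) and 3 lower (7.32%, against 3.95%).

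Within single libraries, the rank correlation between GC content and how far each gene lay from its average over the 6 libraries was near 0 in mouse 1 of both genotypes (0.0455 in WT and 0.0588 in Ube3am-/p+), at -0.506 and -0.571 in WT mice 2 and 3, and at 0.526 and 0.528 in Ube3am-/p+ mice 2 and 3. GC content and genotype cannot be told apart in the latter 4 mice, and the correction also takes away any genotype difference that follows GC content. With the correction, rho over the members was 0.0781 and the medians of the classes were -0.01 and 0.02. The count without overlap went from 23 to 11 members, 6 higher and 5 lower (15.5%, against 17.4% of all genes), and that at an unadjusted p below 0.05 from 21 to 8 (11.3%, against 14.2%).

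**Figure D5:**
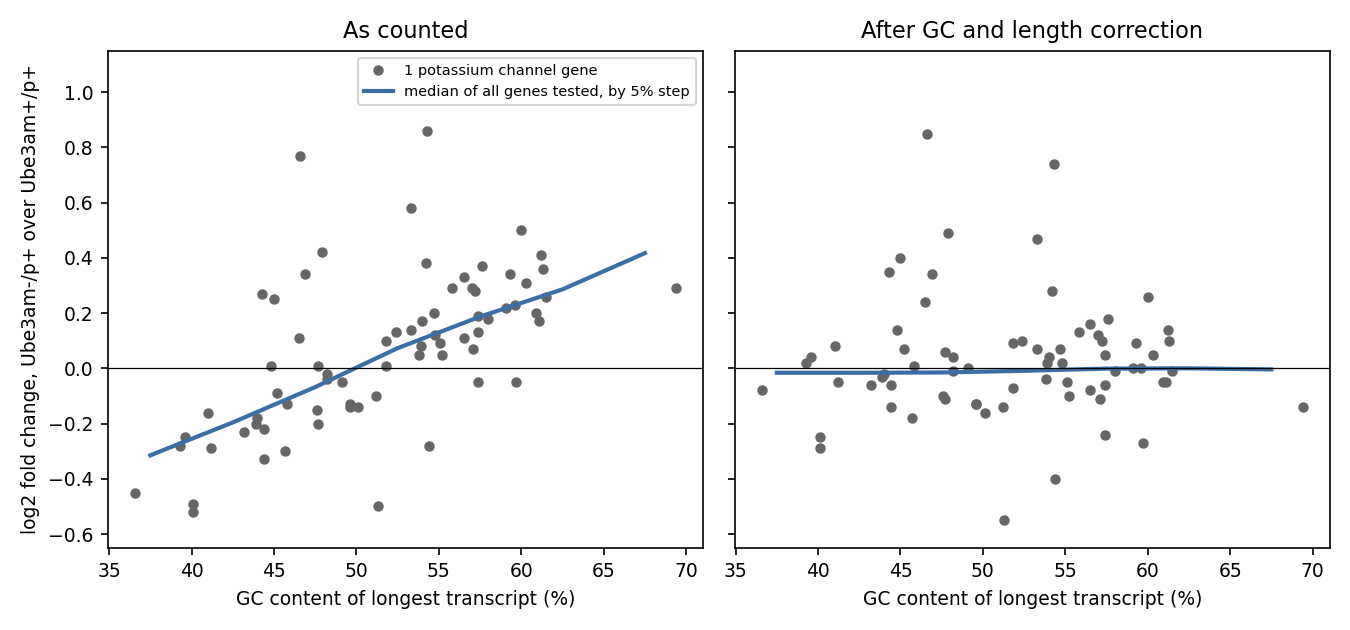
Log2 fold change (Ube3am-/p+ over WT) of the 71 tested potassium channel genes against the GC content of the longest transcript in percent, as counted (left) and after the correction for GC content and length (right), with the median of all genes tested in steps of 5% as a line. On the left the points climb with the line (rho 0.646), and on the right both are level (rho 0.0781).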

How the data were processed

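Hippocampal RNA of 6 mice was sequenced, 1 library per mouse. The authors deposited raw counts per gene symbol, without normalization. The submitters' processing notes name STAR 2.7.4a, HTSeq and mm10. Annotation and strand setting are not given in the sources used here. Rows that name no gene held 58.22% to 60.97% of the reads listed and were left out.

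Counts were filtered by filterByExpr, TMM-scaled and tested by genotype with edgeR 4.0.16 (quasi-likelihood F test, robust, two-sided, R 4.3.3), with Benjamini-Hochberg adjustment over 14445 genes. Genes counted as differentially expressed at adjusted p under 0.05 with more than 1.2-fold difference. CPM used total gene counts. Alternatives were DESeq2 1.42.0, other scaling and filters, the replicate number as a block, each mouse left out, and a correction per library by natural splines (5 degrees of freedom each) on the longest transcript's GC content and length (GENCODE M21). The main fit, DESeq2, the block and the correction were each first tried on simulated counts, and the other alternatives were not.

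Named genes were those differentially expressed, the 12 with the largest log2 fold change among members with an unadjusted p below 0.05 and no overlap, the member of each family highest per length, and a list of well-known hippocampal channels. Values of some genes covered by this rule, and 1 sequence, were left out. Others are said to be named after their values were seen. The members and lists were chosen with earlier results of these data known. No label says that the mice came from separate litters. Precision was set by 3 mice per genotype, with a biological coefficient of variation of 0.102, and the 3-count limits cover counting error only.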

Additional observations from a re-analysis of the deposited data

How the results depend on the processing

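Against 290 genes and 0 members differentially expressed with edgeR, DESeq2 called 967 genes, 6 members and 1 partner gene, and the fit without a filter 1176 genes, 5 members and 1 partner gene. RLE factors gave 399 genes and 2 members (Kcnh3 and Kcnt2). A minimum of 10 counts in every library gave 392 genes and 1 member (Kcnt2). At an unadjusted p below 0.05 with the fold threshold there were 2832 genes, 14 members and 3 partner genes. The GC and length correction left 92 genes and 1 member (Kcnn2), a median over the members of 0.0 and 11 members without overlap. Leaving out each mouse in turn gave 0 to 2582 genes, 0 to 13 members and 0 to 3 partner genes. The median over the members was then 0.04 to 0.12. Without overlap were 27 to 37 members, from fewer mice and with the share over all genes not given here. The causes were not tested beyond what the correction itself removes.

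Mice with the same replicate number correlated at -0.285, -0.177 and -0.311 in how far genes lay from the mean of their genotype. These values cannot show whether the numbers pair the mice. The relation to GC content was opposite between the genotypes in mice 2 and 3. With the number as a block, 0 genes and 0 members were called, and with block and correction together 13 genes and 0 members, with a median of 0.0 over the members. Ube3a was then at -0.57 (adjusted p = 0.216) with the block, -0.20 (0.24) with the correction and -0.19 (0.372) with both. Left out one at a time, the mice gave -0.73 to -0.48 for Ube3a, which was not called without mouse 2 or 3 of either genotype.

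Signs reversed with the correction, without and with the block, in Kcna2 (0.01 and 0.01), Kcnab2 (-0.01 and -0.02), Kcng2 (-0.01 and -0.01), Kcnh7 (0.04 and 0.09), Kcnip2 (-0.05 and -0.05), Kcnk1 (-0.07 and -0.07) and Kcnma1 (0.07 and 0.07). With library size alone Kcna4 and Kcnk1 were at -0.01. Without 1 mouse, signs changed within -0.04 to 0.06 for Kcna4, -0.09 to 0.03 for Kcnd3, -0.45 to 0.25 for Kcnh7, -0.09 to 0.01 for Kcnj6 and -0.04 to 0.08 for Kcnk1. Under the correction, Kcnn2 without 1 mouse ran from -0.47 to -0.32. That range, and the overlap count with TMM factors, were added after the data were seen. With 7293272 counts in the shallowest library, tested members under 10 CPM had SEs of 0.18 to 0.53.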
